A study of Mus musculus with 4 samples.

Results

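Primitive red cells are the first blood cells of the mouse embryo. The genes described here are 32 genes of that lineage other than the globins, a list made up of red cell transcription factors, the erythropoietin receptor, membrane and blood group proteins, the enzymes of haem synthesis, iron carriers and 4 further red cell genes. They were found by name among the non-control probes of 4 Agilent 2-colour arrays, with a single probe per gene, the one of highest mean processed signal over both channels. All 32 were present, 31 under the name on the array and Epb42 under its older name Epb4.2, among 30128 genes named on the arrays. Each array compared RNA from a pool of 3 mutant hearts with RNA from a pool of 3 control hearts, both microdissected at embryonic day 9.5. Mutants were Nkx2.5Cre; Hdac3f/f and controls Hdac3f/f littermates from crosses of Nkx2.5Cre; Hdac3f/+ with Hdac3f/f mice, on a mixed CD1/B6/129 background, so that all embryos carried floxed Hdac3 alleles. No Cre is given for the controls, which the titles call wild type. Nkx2.5Cre takes its name from Nkx2-5, a transcription factor of the early heart. Hdac3 encodes a histone deacetylase. The labels call the 4 arrays biological replicates. In the description field, replicates 2 to 4 are called embryonic stem cells, but by title, source and genotype they are hearts.

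Primitive red cells form in the blood islands of the yolk sac and enter the heart with the first circulation, where they still carry nuclei and go on transcribing. GATA1, with its partners FOG1 (Zfpm1), TAL1 and LMO2, and KLF1 switch on the genes for haem synthesis, iron uptake and the red cell membrane in these cells. A microdissected heart therefore contains blood in its lumen beside heart muscle and endocardium. In pooled tissue, fewer red cells and less RNA per red cell cannot be told apart.

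GATA1 binds a short word, GATA with an A or T before it and an A or G after it, so the windows before the start sites of the genes were searched for it. Of the 32 genes, 24 had an entry in the RefSeq promoter table (GRCm38.p6), with 30 start sites in all, and the 250 bases before each start were searched on both strands for AGATAA or the same letters with a T first, a G last or both, counted together. Of the 30 windows, 16 held such a word (53.3%), against 26.5% of the 32851 windows of the same length in the table. By gene, 16 of 24 had it in at least 1 window. The erythroid Krüppel-like factor word CCNCNCCC stood in 18 of the 30 windows (60.0%, against 45.9% of all) and the NF-E2 word TGANTCA in 2 (6.67%, against 6.75% of all). A match describes letters in a window and is not evidence of binding. Of the 8 genes with a ratio below 0 on every array, in the direction used below, 6 had an entry. All of these but Bpgm held a GATA word, and those 5 windows are shown here. The genes were picked by the sign of their ratios, and 16 of all 24 genes held the GATA word. CCNCNCCC stood in 1 of the 6 genes, against 14 of all 24, and TGANTCA in 1, against 2 of all 24. Whether any of these words bears on the ratios was not tested. Each line gives the 250 bases before the start site, 5′ to 3′ along the gene, with the GATA word in capitals on whichever strand it lies.
Rhag: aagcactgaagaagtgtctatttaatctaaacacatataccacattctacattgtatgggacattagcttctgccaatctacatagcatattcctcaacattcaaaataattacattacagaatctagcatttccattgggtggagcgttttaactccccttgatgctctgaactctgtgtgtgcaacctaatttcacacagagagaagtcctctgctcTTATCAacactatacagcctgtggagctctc
Rhd: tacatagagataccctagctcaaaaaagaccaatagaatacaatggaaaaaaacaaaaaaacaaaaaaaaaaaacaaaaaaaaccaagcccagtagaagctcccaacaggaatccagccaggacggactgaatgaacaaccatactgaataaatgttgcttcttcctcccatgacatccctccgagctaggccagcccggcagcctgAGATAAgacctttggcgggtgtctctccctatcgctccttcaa
Klf1: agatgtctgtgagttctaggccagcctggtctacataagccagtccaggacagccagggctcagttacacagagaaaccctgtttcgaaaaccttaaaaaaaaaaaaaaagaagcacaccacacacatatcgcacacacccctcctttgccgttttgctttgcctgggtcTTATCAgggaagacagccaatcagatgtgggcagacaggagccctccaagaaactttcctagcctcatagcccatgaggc
Epb42: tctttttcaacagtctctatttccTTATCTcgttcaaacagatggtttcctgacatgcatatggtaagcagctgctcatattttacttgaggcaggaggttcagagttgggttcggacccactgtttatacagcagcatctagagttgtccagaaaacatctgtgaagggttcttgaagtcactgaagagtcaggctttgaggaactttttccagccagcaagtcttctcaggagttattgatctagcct
Trim10: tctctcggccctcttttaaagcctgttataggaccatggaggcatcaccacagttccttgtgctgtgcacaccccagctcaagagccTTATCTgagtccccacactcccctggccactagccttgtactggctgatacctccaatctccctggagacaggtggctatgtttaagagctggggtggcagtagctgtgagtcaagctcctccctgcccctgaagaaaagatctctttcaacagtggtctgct
The Rhag window lies at chr17:40810899-40811148 on the plus strand and its word begins at position -31, counted back from the start site. The Rhd window lies at chr4:134864286-134864535 on the plus strand, with the word at -43. The Klf1 window lies at chr8:84901732-84901981 on the plus strand, with the word at -80. The Epb42 window lies at chr2:121036878-121037127 on the minus strand, with the word at -226. The Trim10 window lies at chr17:36869324-36869573 on the plus strand, with the word at -163. It also held TGANTCA at a separate place.

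The direction of the ratios has to be stated before any value. The labels put every mutant pool in Cy5, whereas the normalized columns, which the authors head as mutant versus wild type, follow the scanner's Cy5 to Cy3 ratio on arrays 1 and 2 (correlations of 0.932 and 0.940 for bright spots) but oppose it on arrays 3 and 4 (-0.992 and -0.951), as after a dye swap. The deposited direction is used throughout, as a likely one, because on it Hdac3, the deleted gene, lay below 0 on every array. Its log2 ratios were -0.22, -0.50, -0.52 and -1.15 on arrays 1 to 4 (mean -0.60 ± 0.39, SD, n = 4; limma adjusted p = 0.585). With Cy5 as mutant on every array, the mean of Hdac3 was 0.24. Whether its probe lies in the deleted part of the gene was not determined here. Over the 19596 genes tested, the deposited ratios of arrays 1 and 4 correlated at -0.325 and those of arrays 2 and 4 at -0.124. Arrays 1 and 2 correlated at 0.541, and arrays 3 and 4 at 0.448. Arrays 1 and 3 correlated at 0.054 and arrays 2 and 3 at 0.015. The direction of arrays 3 and 4 is therefore not settled. Values by gene are in the deposited direction unless stated, and the reading with Cy5 as mutant is set beside the counts, the pool levels, the lists and the genes given after them. On every array and in either channel, the signal of all 32 genes stood well above background.

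In the deposited direction, 26 of the 32 genes had a mean log2 ratio below 0 in the mutants, against 46.5% of all genes tested. Their median ratio was -0.16, and that of all genes 0.011. On array 2 the median of the 32 genes was -0.47, with 28 below 0. It was -0.056 on array 1 (21 below 0), -0.056 on array 3 (17 below 0) and -0.11 on array 4 (21 below 0). Without array 2 the median of the mean ratios was -0.059, with 24 of 32 below 0. The array medians of all genes lay between 0.001 and 0.011. No gene of the 32 passed limma's test at an adjusted p of 0.05 (0% of all genes passed in either direction). The smallest adjusted p was 0.585 among the 32 and 0.254 among all genes. At an unadjusted p of 0.05, 5 were lower (Rhag, Epb42, Trim10, Car2 and Slc25a37) against a background of 4.59%, and 0 were higher against 3.87%. The 95% confidence intervals come from the same fit, so that those of these 5 genes necessarily lay wholly below 0. Ratios were below 0 on all 4 arrays for 8 genes (those 5 with Rhd, Klf1 and Bpgm) against 9.71% of all genes, and above 0 on all 4 arrays for 0 against 10% of all genes. An exact two-sided sign test on 4 pairs cannot go below p = 0.125.

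**Figure D1:**
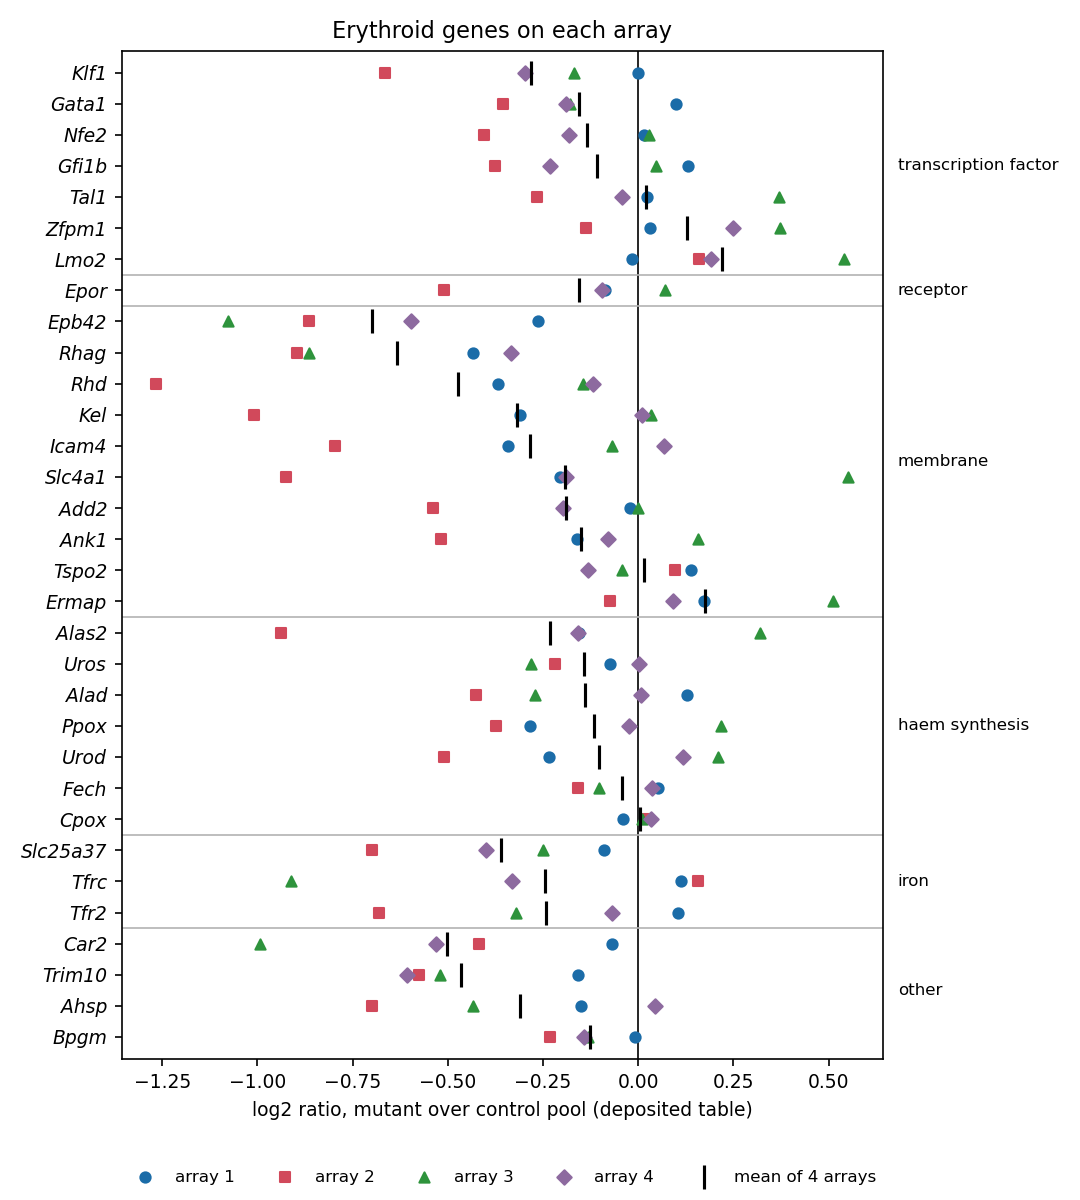
Log2 ratio of mutant over control (x axis) for each of the 32 genes (rows, grouped by role); the 4 symbols are the arrays and the black bar is their mean. The array 2 values stand furthest to the left for most membrane genes, reaching -1.27 for Rhd, while on array 3 the genes spread from -1.08 (Epb42) to 0.55 (Slc4a1).

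The transcription factors had a median of -0.11, with 4 of 7 below 0. Klf1, the Krüppel-like factor that activates adult globin and membrane genes, had log2 ratios of -0.001, -0.67, -0.17 and -0.30 (mean -0.28 ± 0.28, SD, n = 4). Its ratio was at 0 on array 1 and lower on the other arrays, and its mean without array 2 was -0.16. Its probe lies at chr8:87428881-87428940 (mm9). Gata1, the factor that red cells cannot form without, had ratios of 0.099, -0.36, -0.18 and -0.19 (mean -0.16 ± 0.19). Array 1 was thus opposite in sign to the rest. Lmo2, a bridging protein of the GATA1 complex, had ratios of -0.015, 0.16, 0.54 and 0.19 and the highest mean of the 32 genes (0.22 ± 0.23). Tal1, the basic helix-loop-helix partner in that complex, had ratios of 0.024, -0.27, 0.37 and -0.042 (mean 0.022 ± 0.26), and its values spanned 0. Zfpm1, which encodes the GATA1 cofactor FOG1, had a mean of 0.13 ± 0.23, with array 3 again highest at 0.37. Nfe2, a globin gene activator, and Gfi1b, a repressor needed for red cell and platelet precursors, had means of -0.14 and -0.11. Lmo2 and Tal1 are also active in endothelial cells. The 15 endocardial and endothelial markers had array medians of 0.016, 0.050, 0.46 and 0.18, highest on array 3 as for Lmo2, Tal1 and Zfpm1. Array 3 was also the highest for Slc4a1 (0.55), Ermap (0.51) and Alas2 (0.32), among others. It had the widest spread over all genes (SD 0.43). The part of endocardial and endothelial cells in these ratios was not tested.

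Epor, the receptor for erythropoietin, had ratios of -0.087, -0.51, 0.071 and -0.096 (mean -0.16 ± 0.25, SD, n = 4), so that array 2 alone was far from 0. Without array 2 its mean was -0.037.

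The membrane and blood group genes had a median of -0.24, with 8 of 10 below 0. Rhag, the Rh-associated glycoprotein that carries ammonia across the red cell membrane, had the smallest p of the 32 genes. Its log2 ratios were -0.43, -0.90, -0.86 and -0.33 (mean -0.63 ± 0.29, SD, n = 4; 95% confidence interval -0.92 to -0.34; limma adjusted p = 0.585), a mutant level of 0.645 times the control. The levels of the 4 mutant pools (8.27, 7.94, 7.59 and 8.20 on a log2 scale) nevertheless overlapped those of the control pools (8.62, 8.72, 7.96 and 8.49), because control pool 3 was as low as mutant pool 2. Its probe, at chr17:40976929-40976988 (mm9), had a mean processed signal of 144. These levels come from the scanner's channel intensities, on which the mean ratio of Rhag was -0.45. The scanner's own log ratio gave -0.79, so the size depended on the source of the ratio. Epb42, a protein that ties band 3 to the membrane skeleton, had ratios of -0.26, -0.86, -1.08 and -0.60 (mean -0.70 ± 0.35; interval -1.04 to -0.37; limma adjusted p = 0.585), 0.615 times the control. It was the lowest mean of the 32, at chr2:120844440-120844499 (mm9), with a mean processed signal of 189. From the channel intensities the mean of Epb42 was -0.57, and from the scanner's own log ratio -0.80. A second Epb42 probe was not well above background on any array. Rhd, the Rh blood group antigen, had ratios of -0.37, -1.27, -0.14 and -0.12 (mean -0.47 ± 0.54; interval -0.95 to 0.0029), so that array 2 stood apart and the mean without it was -0.21. Its probe lies at chr4:134452018-134452077 (mm9). Kel, the Kell endopeptidase, had ratios of -0.31, -1.01, 0.035 and 0.009 (mean -0.32 ± 0.49). Icam4, an adhesion molecule of the LW blood group, had ratios of -0.34, -0.80, -0.069 and 0.069 (mean -0.28 ± 0.38). Rhd, Kel and Icam4 shared a profile that was low on arrays 1 and 2 and nearer 0 on arrays 3 and 4. Rhag, at -0.86 on array 3, and Ermap, at 0.51 there, did not share it. Without array 2 the means of Kel and Icam4 were -0.089 and -0.11. Slc4a1, band 3, the anion exchanger, had ratios of -0.21, -0.92, 0.55 and -0.19 (mean -0.19 ± 0.60), the widest spread of the 32 genes. Without array 2 its mean was 0.052. The skeleton genes Ank1, ankyrin, and Add2, beta-adducin, had means of -0.15 and -0.19, Tspo2, a cholesterol-binding protein of maturing red cells, 0.016, and Ermap, a blood group antigen of the Scianna system, 0.18.

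The haem pathway genes had a median of -0.12 and 6 of 7 below 0. Alas2, the red cell form of the first enzyme, had log2 ratios of -0.15, -0.94, 0.32 and -0.16 (mean -0.23 ± 0.52, SD, n = 4), and its mean without array 2 was 0.0023. Like Slc4a1, it was lowest on array 2 and above 0 on array 3. The enzymes that follow it had means of -0.14 (Alad), -0.14 (Uros), -0.10 (Urod), 0.0057 (Cpox), -0.12 (Ppox) and -0.043 (Fech, which inserts the iron). Cpox had the narrowest spread of the 32 genes, with ratios of -0.041, 0.021, 0.009 and 0.034.

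By the brightest probe of each, all 3 iron genes had a mean below 0, with a median of -0.24. Further probes of Slc25a37 (mean 0.12) and of Tfrc (means 0.060 and 0.13) lay above 0. Slc25a37, mitoferrin, which takes iron into mitochondria, had log2 ratios of -0.090, -0.70, -0.25 and -0.40 (mean -0.36 ± 0.26, SD, n = 4; interval -0.63 to -0.089; limma adjusted p = 0.585). Tfr2, transferrin receptor 2, had ratios of 0.10, -0.68, -0.32 and -0.069 (mean -0.24 ± 0.34, and -0.096 without array 2). Tfrc, the main transferrin receptor of red cell precursors, had ratios of 0.11, 0.16, -0.91 and -0.33 (mean -0.24 ± 0.50), with arrays 1 and 2 above 0 and arrays 3 and 4 below it, and a mean of -0.021 without array 3. Of the 32 genes, Tspo2 also had this order of signs (0.14 and 0.098, then -0.042 and -0.13).

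All 4 remaining genes had a mean below 0, with a median of -0.39. Trim10, a RING finger protein of terminal red cell maturation, had log2 ratios of -0.16, -0.58, -0.52 and -0.61 (mean -0.47 ± 0.21, SD, n = 4; interval -0.70 to -0.23; limma adjusted p = 0.585). Car2, carbonic anhydrase 2, had ratios of -0.070, -0.42, -0.99 and -0.53 (mean -0.50 ± 0.38; limma adjusted p = 0.585), and both were nearest 0 on array 1. Their probes lie at chr17:37014159-37014218 and chr3:14900206-14900265 (mm9). Ahsp, the chaperone of free alpha globin, had ratios of -0.15, -0.70, -0.43 and 0.045 (mean -0.31 ± 0.33, and -0.18 without array 2). Bpgm, which makes the 2,3-bisphosphoglycerate that lowers haemoglobin's oxygen affinity, had ratios of -0.008, -0.23, -0.13 and -0.14 (mean -0.13 ± 0.092), below 0 on every array but small.

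The levels in the 8 single pools, taken from the scanner's channel intensities, show which pools were high and which low. For each gene the mean log2 level over the 8 pools was subtracted, and the median over the 32 genes was taken in each pool. In control pools 1 to 4 that median was 0.29, 0.33, -0.18 and -0.15, and in mutant pools 1 to 4 it was 0.24, -0.12, -0.27 and -0.23. The control pools of arrays 1 and 2 and the mutant pool of array 1 were therefore high, and the other 5 pools low. The medians of all genes lay between -0.015 and 0.014. With each channel scaled to its 75th percentile of processed signal in place of loess and quantile scaling, the control pools were at 0.35, 0.34, -0.15 and -0.20 and the mutant pools at 0.30, -0.11, -0.27 and -0.28. Control pools 1 and 2 both lay above control pools 3 and 4 for 27 of the 32 genes (84.4%), against 32.6% of all genes. The exceptions were Lmo2, Trim10, Tfrc, Tspo2 and Car2. Mutant pool 1 was the highest mutant pool for 26 genes (81.3%, against 24.2% of all genes). All 4 pools of arrays 3 and 4 lay below both pools of array 1 for 20 genes (62.5%, against 12.3%). This last count is the same whichever channel of arrays 3 and 4 held the mutant. The pools of arrays 3 and 4 change places with Cy5 as mutant, and the first of these counts were 25 (78.1%, against 22.2% of all genes) for the controls and 24 (75%, against 31.1%) for mutant pool 1. Each array held pools of its own, so array and pool cannot be told apart in a difference between arrays. In the deposited direction the dye of a genotype also differs between arrays 1 and 2 and arrays 3 and 4.

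**Figure D2:**
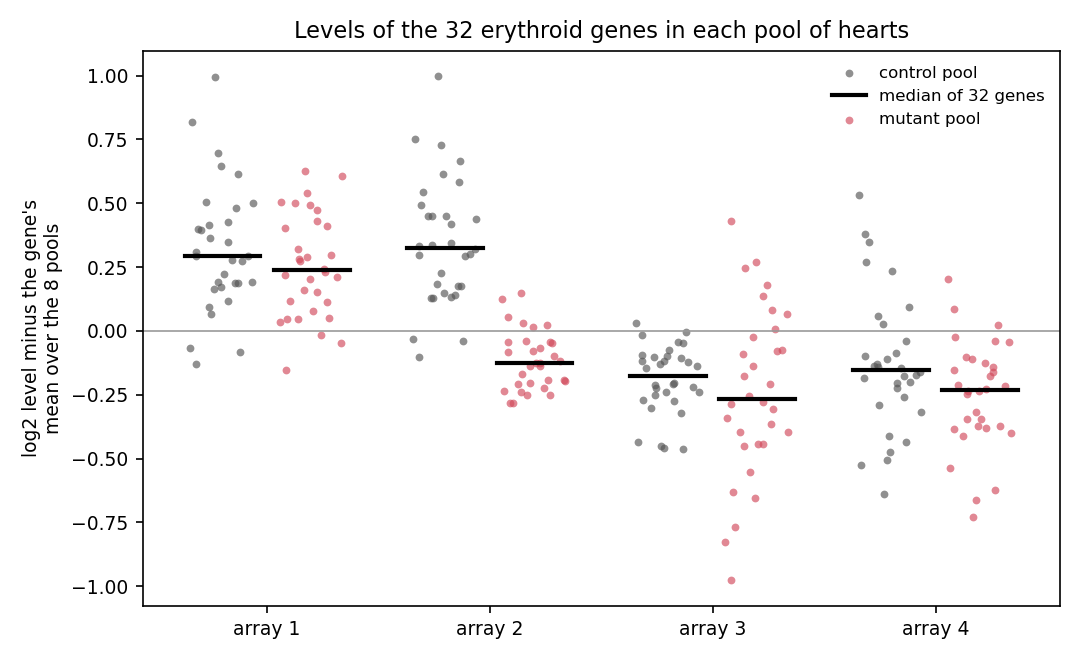
Log2 level of each of the 32 genes in each pool minus the gene's mean over the 8 pools (y axis), by array (x axis); grey points are control pools, red points mutant pools and black bars the median of the 32 genes. Both pools of array 1 and the control pool of array 2 sit near 0.3, and the other 5 pools lie below 0.

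The measured levels of the control pools themselves differed widely. In the deposited direction dye, array and pool cannot be told apart in that range. The range of the 4 control levels had a median of 0.55 over the 32 genes, on the log2 scale, and of 0.27 over all genes. The largest was that of Rhd, with control levels of 11.18, 11.19, 9.73 and 9.55, a 3.11-fold range among control pools. Its mutant levels were 10.81, 9.94, 9.64 and 9.46, so that mutant pools 2 to 4 lay beside control pools 3 and 4. Kel followed with a 2.53-fold range among controls, then Alas2 (2.35-fold), Slc4a1 (2.18-fold) and Ahsp (2.08-fold). For Alas2 the controls were at 12.99, 13.02, 11.83 and 11.79 and the mutants at 12.83, 12.09, 12.15 and 11.63. Here too the pools of array 1 and control pool 2 were the high ones, and the genotypes overlapped. Lmo2 had the opposite profile, with controls at 11.33, 11.35, 11.36 and 11.36 and mutants at 11.30, 11.51, 11.88 and 11.54. Its controls were nearly equal and only mutant pool 1 lay below them. Car2 had controls at 13.05, 13.08, 12.74 and 13.13 and mutants at 12.97, 12.67, 11.78 and 12.60. Its mutant pool 1 lay above control pool 3, and the other mutant pools lay below every control pool. For 0 of the 32 genes did every mutant pool lie below every control pool, against 1.31% of all genes, and for 0 did every mutant pool lie above them, against 1.39%. The median control range with Cy5 as mutant was 0.74 (0.31 over all genes) and that of Rhd 3.31-fold. In that reading 1 gene, Urod, had every mutant pool below every control pool, against 4.69% of all genes, and 0 had every one above, against 3.91%.

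With Cy5 as mutant on every array, 25 of the 32 genes had a mean below 0, against 50.1% of all genes, and the median was -0.055. Under both readings 20 genes lay below 0, and 11 changed sign. Those below 0 under both included Rhd (-0.47 and -0.34), Kel (-0.32 and -0.34), Icam4 (-0.28 and -0.28), Slc4a1 (-0.19 and -0.37) and Alas2 (-0.23 and -0.31). Rhag went from -0.63 to -0.033, and Epb42 (0.14), Trim10 (0.098), Car2 (0.26) and Tfrc (0.38) came to lie above 0. Lmo2 went from 0.22 to -0.15. On arrays 1 and 2 alone, for which both sources give the same direction, the median of the 32 genes was -0.28. In that reading 13 genes were lower at an unadjusted p of 0.05, against 12.8% of all genes, and 0 at an adjusted p of 0.05. These are 2 arrays, and the pairs differ, since array 1 had no gene of the 32 below -0.5 and array 2 had 16. By comparison 0.715% and 1.57% of all genes were below -0.5 on those arrays. Arrays 3 and 4 had 5 and 3 (9.94% and 2.62% of all genes).

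**Figure D3:**
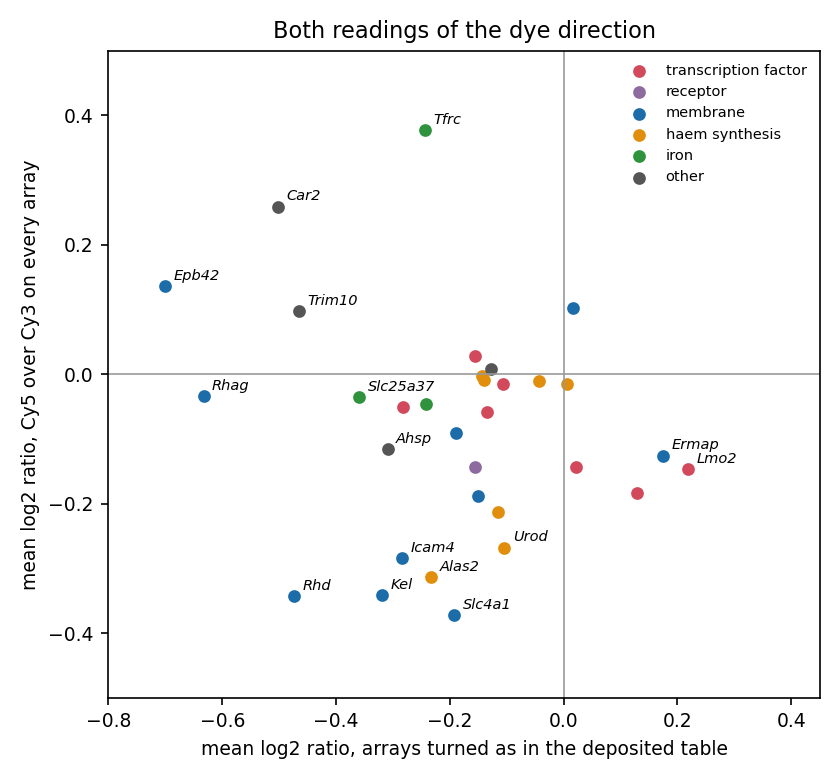
Mean log2 ratio of each gene with arrays turned as in the deposited table (x axis) against the mean with Cy5 over Cy3 on every array (y axis), coloured by role. Rhd, Kel and Slc4a1 stay in the lower left quadrant, while Epb42, Car2, Trim10 and Tfrc lie below 0 on the x axis and above it on the y axis.

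Of the 32 genes, 6 had more than 1 probe, and for 3 of them the probes differed in sign. For Tfrc the brightest probe (signal 2699, chr16:32632255-32632314, mm9) gave a mean of -0.24, whereas a probe almost as bright (signal 2404, chr16:32620470-32620529) gave 0.10, -0.46, 0.58 and 0.012 (mean 0.060). On this probe array 2 was lowest and array 3 highest, the order seen for Slc4a1 and Alas2. A dim Tfrc probe (signal 84.1) had a mean of 0.13. For Ermap the brightest probe gave 0.17, -0.075, 0.51 and 0.091 (signal 441), whereas the other probes gave 0.069, -0.65, -0.52 and -0.39 (mean -0.37, signal 408) and -0.12, -0.49, -0.26 and -0.26 (mean -0.28, signal 151). The sign of Ermap thus depended on the probe. For Slc25a37 the bright probe (signal 5192) had a mean of -0.36 and the dim one (signal 93.0) of 0.12, with array 2 lowest on both. The paired probes of Zfpm1 overlap on the genome and gave 0.13 and 0.15, and those of Uros -0.14 and -0.0028. Which transcripts each probe detects was not analysed here.

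**Figure D4:**
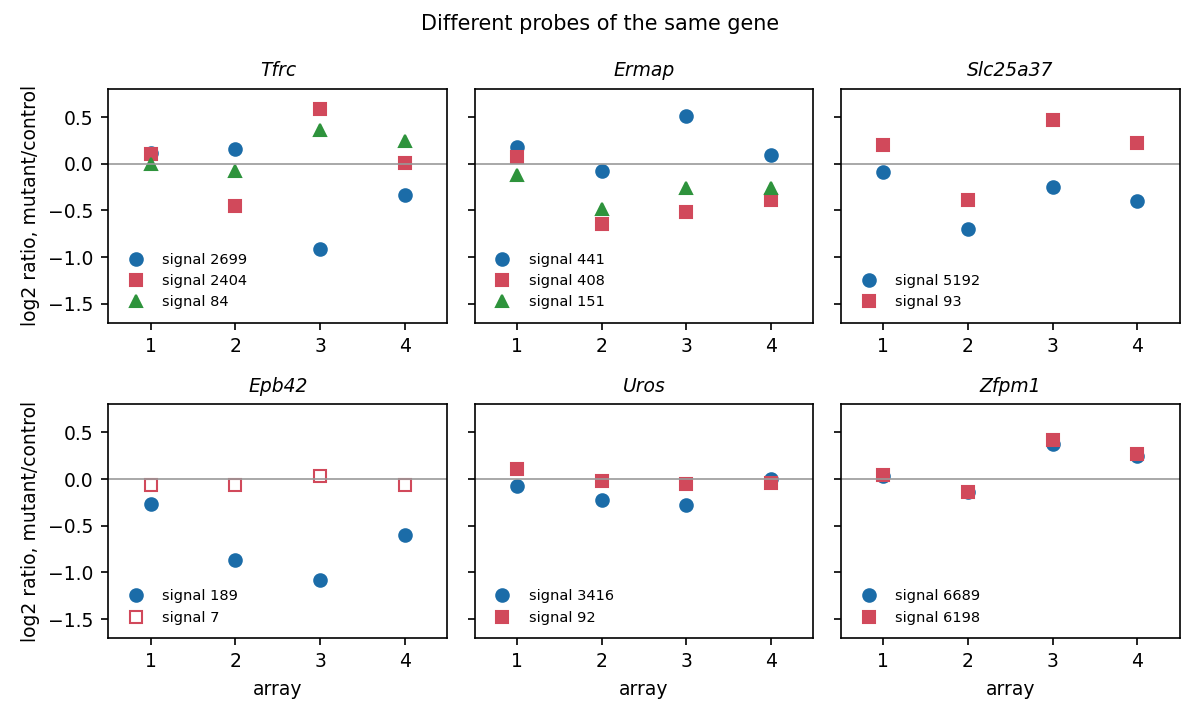
Log2 ratio of mutant over control (y axis) on each array (x axis) for the 6 genes with more than 1 probe; symbols are probes with their mean processed signal, and open symbols mark a probe not well above background. The probes of Tfrc, Ermap and Slc25a37 part most on array 3, and those of Zfpm1 overlap.

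Other red cell genes, 67 tested of 70 listed from general knowledge, had a median log2 ratio of -0.032, with 40 below 0, against 46.5% of all genes. At an unadjusted p of 0.05 in limma, 10 were lower (against 4.59% of all genes) and 3 higher (against 3.87%). None passed an adjusted p of 0.05. Among the 3 of smallest p were Cited2, a transcriptional coactivator (mean 0.51 ± 0.32, SD, n = 4), and Cd47, the membrane protein that protects red cells from engulfment (-0.35 ± 0.18). With Cy5 as mutant throughout, their means were -0.018 and 0.027, and the median of the list was -0.026. The 8 globins, all below 0 in the mean, had array medians of 0.21, -0.64, -0.37 and -0.51. The globin index over pools, made as for the 32 genes, was 0.24, 0.58, -0.19 and 0.043 in controls and 0.38, -0.051, -0.63 and -0.52 in mutants. By this median, array 1 and control pool 2 were thus high for globins too, but the globins were split on array 1. There 3 of the 8 had a ratio below 0 (Hbb-b2 -1.16, Hbb-bs -0.94 and Hbb-b1 -0.41). The others lay between 0.20 (Hba-a1) and 0.71 (Hbb-y). With Cy5 as mutant throughout, the median of the globins was 0.10. Of the globins, the embryonic Hbb-bh1 had a mean of -0.47 (0.37 with Cy5 as mutant), Hba-a1 of -0.35 (0.13) and the embryonic Hba-x of -0.28 (0.084). Hba-a2 (-0.33, and 0.23 with Cy5 as mutant) and Hbb-y (-0.47 and 0.63) changed sign as well. Hbb-b2 (-0.57 and -0.76), Hbb-b1 (-0.31 and -0.43) and Hbb-bs (-0.45 and -0.63) lay below 0 under both readings. Globin genes are near copies of each other, so single values may share signal.

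Markers of other cell types in the dissected hearts also differed between arrays. Of all genes tested, 46.5% had a mean below 0 in the deposited direction. Of 12 platelet and megakaryocyte genes, 11 had a mean below 0, with array medians of 0.089, -0.30, -0.39 and -0.29 and an overall median of -0.14 (0.15 with Cy5 as mutant throughout). Their lowest by p were Ppbp (-0.63), Gp9 (-0.43) and Treml1 (-0.40), at 0.27, 0.13 and 0.36 with Cy5 as mutant. Of 10 macrophage and myeloid genes tested of 14, 4 lay below 0 (median 0.019, and -0.000875 with Cy5 as mutant), with Lyz2 at -0.44, Csf1r at 0.34 and C1qb at -0.12. Turned that way, these 3 were at 0.068, -0.25 and 0.004. Ptprc, Spi1, Fcgr1 and C1qa did not pass the filter on dim probes. Of 15 endocardial and endothelial genes, 4 lay below 0 (median 0.17, and -0.10 with Cy5 as mutant throughout), with Nfatc1 at 0.34, Erg at 0.67 and Cldn5 at 0.22. Turned that way, these 3 were at 0.011, -0.23 and -0.072. Of 16 myocardial genes, 9 lay below 0 (median -0.012; array medians 0.079, 0.21, -0.14 and -0.30), with Nppa at -0.31, Tnni3 at 0.21 and Tnni1 at -0.14. The median was 0.18 with Cy5 as mutant, when these 3 were at 0.27, -0.19 and 0.072. Of 10 liver and yolk sac endoderm genes tested of 14, 2 lay below 0 (median 0.34; array medians 0.48, 0.31, 0.12 and 0.20), and Alb, Apoa1, Apob and Hnf4a did not pass the filter. Apoc2 had a mean of 0.68, Vil1 of 0.50 and Apom of 0.35. The median of this list was 0.077 with Cy5 as mutant, when these 3 were at 0.052, 0.17 and 0.10. No gene in these lists passed an adjusted p of 0.05 in limma, and the part of other cell types in the values of the 32 genes was not tested.

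**Figure D5:**
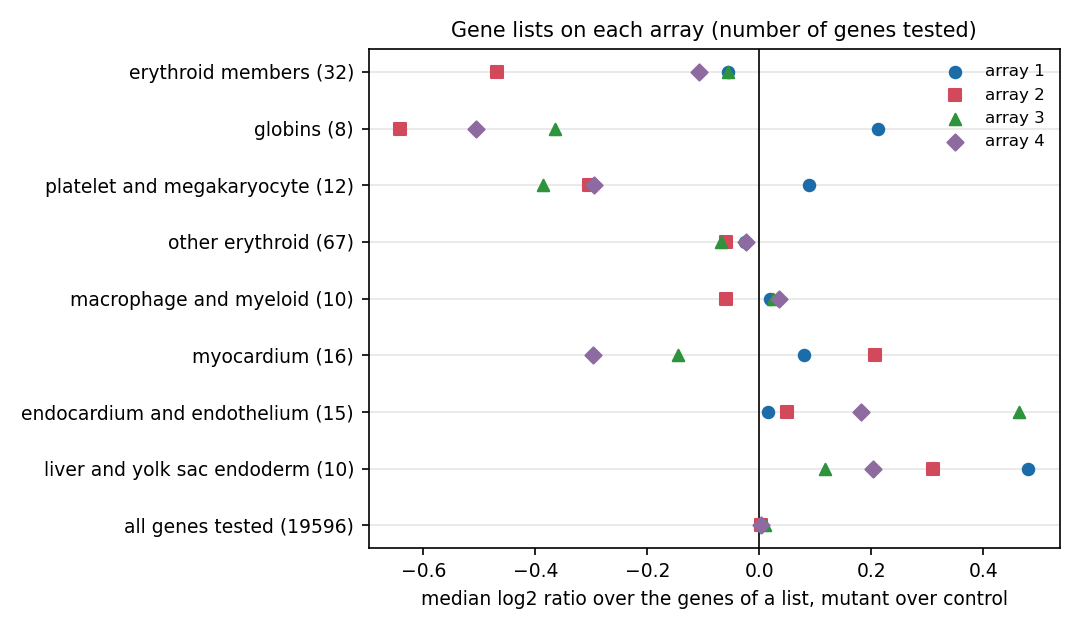
Median log2 ratio of mutant over control (x axis) on each array (symbols) for the 32 genes, 7 other gene lists and all genes tested (rows, with the number tested). The 32 genes, the globins and the platelet genes all lie below 0 on array 2, while the medians of all genes lie between 0.001 and 0.011. The other erythroid list and the macrophage and myeloid list lie slightly below 0 there (both -0.06). The endothelial, myocardial and endoderm lists lie above 0 on that array.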

How the data were processed

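RNA from 4 pairs of heart pools was measured on 4 arrays of 1 slide. The scanner files hold green and red intensity for 44397 spots an array (1377 controls) and the log10 ratio of red over green, per the file headers, which name Feature Extraction 11.5.1.1. The submitters' processing notes name Feature Extraction 8.5.1.1. The authors also deposited a table of log2 ratios, normalized in a way not given in the sources used here. Column medians of that table lie between -0.027 and 0.025 and slopes on the scanner's log2 ratio between 0.99 and 1.03 in size, so the base is 2, while centring stays unknown.

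Of 39429 probes, 29054 were named by a current symbol, 1998 by accession, 404 by an older symbol and 7973 as in the file. Genes were represented by their brightest probe and tested where it was well above background in either genotype's channel on all arrays (19596 genes). In a given channel, 66.6% to 71.2% of the probes cleared background by that flag. Ratios were tested against 0 with limma 3.58.1 in R 4.3.3, two-sided, with Benjamini-Hochberg adjustment over all genes tested. Levels came from the mean and background intensity by normexp (offset 50), loess and Aquantile scaling. The probe coordinates are the scanner files' (mm9). Promoter windows are RefSeq's.

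The 32 genes and all lists were chosen with earlier results of these data known. Values on every array are given for the 12 genes of smallest p and for Gata1, Klf1, Tal1, Alas2, Slc4a1, Ahsp, Epor and Tfrc, and other lists give their 3 of smallest p, except for a gene that is not reported here. The text also gives single arrays for Bpgm, Cpox, Tspo2, Zfpm1, the Ermap probes and the second Tfrc probe, chosen after their values were seen. The fit was tested on simulated data. Alternatives changed the source of the ratios, the dye direction, a dye term, the filter, the probe rule, centring, the pairing, array weights and the replicates.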

Additional observations from a re-analysis of the deposited data

Results flagged for a closer look

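The median ratio of the 32 red cell genes on array 2 (-0.47) lay far from the other arrays (-0.056, -0.056 and -0.11), with a gap of 0.874 of the whole range. Without array 2 the mean ratios had a median of -0.059, with 24 of 32 genes below 0. The 10 macrophage and myeloid genes showed the same kind of gap, 0.847 of the range, also on array 2, with array medians of 0.020, -0.060, 0.024 and 0.034. These were 2 of 26 results examined over the 4 arrays, and chance gives such a gap in about 1 of 20 groups.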

How the results depend on the processing

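The median of the 32 genes stayed below 0 in all 17 alternatives, from -0.28 to -0.055, with 24 to 28 genes below 0 and 0 passing an adjusted p of 0.05. The number lower at an unadjusted p of 0.05 in limma was 5, against 4.59% of all genes. It became 2 with Cy5 as mutant throughout, 8 with a dye term and 15 with array weights. When 1 replicate was left out it was 4 to 7. On arrays 1 and 2 only it was 13, against 12.8% of all genes. The share of all genes was not counted for the other alternatives, so their counts cannot be read as particular to the 32 genes. The ratio within an array is the pairing, and with no replicate block (mutant and control channel levels as independent samples) 3 were lower and the median was -0.15. That fit starts from the scanner signals, whose paired ratios gave 7 lower. Over all genes, 0 passed lower and 0 higher, against 8 and 133 with Cy5 as mutant throughout, 2 and 2 with array weights, 7 and 27 on arrays 1 and 2 only, and 0 to 2 higher with 1 replicate left out (2 without replicate 1). With Cy5 as mutant throughout, and on arrays 1 and 2 only, genotype and dye coincide, so their effects cannot be told apart. The array weights were 3.26, 2.18, 0.284 and 0.497 for arrays 1 to 4, so the weighted fit rested mostly on arrays 1 and 2. The median of the other red cell genes (-0.032) ranged from -0.060 to 0.0080 with 1 replicate left out, the last without replicate 2. With Cy5 as mutant throughout 11 of the 32 genes changed sign, and among the genes given on every array by rule these were Epb42 0.14, Trim10 0.098, Car2 0.26, Lmo2 -0.15, Gata1 0.028, Tal1 -0.14 and Tfrc 0.38. With array weights Tal1 was -0.067 and Tfrc 0.045, and on arrays 1 and 2 only Tal1 was -0.12 and Tfrc 0.13. With 1 replicate left out Alas2 ranged from -0.42 to 0.0023 and Slc4a1 from -0.44 to 0.052, above 0 without replicate 2, and Tal1 from -0.095 to 0.12, below 0 without replicate 3. With the second brightest probe Slc25a37 was 0.12 and Tfrc 0.060. The causes of these changes were not tested. The use of arrays 1 and 2 only, of array names only and of the second probe was chosen after seeing the data. All of the 32 genes were well above background on every array.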

Other observations

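Among the other red cell genes, Slc2a1, the glucose transporter GLUT1, was above 0 on every array, at 0.39, 0.66, 0.38 and 0.10 (mean 0.38 ± 0.23, SD, n = 4; limma adjusted p = 0.585). Its mean with Cy5 as mutant throughout was 0.14. This gene was chosen after its values were seen.

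Over the 32 genes, the ratios of arrays 1 and 2 correlated at 0.711 and those of arrays 3 and 4 at 0.691, while the 4 pairs across those groups lay between 0.133 and 0.298. These correlations are across genes measured on the same slide, and genes are not independent replicates.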
